A study of Mus musculus with 23 samples.

Results

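The drug-metabolising cytochrome P450 genes of the Cyp1, Cyp2 and Cyp3 families were followed in the livers of weanling mice, together with the genes of their main transcriptional regulators and of their electron donor. They were taken by symbol (Cyp1, Cyp2 or Cyp3 followed by a letter, without the pseudogene symbols that end in -ps), with Nr1i2, Nr1i3, Ahr and Por added, and a minimum average of 10 counts across the 23 libraries. Of 61 P450 symbols of these families in the table, 47 reached the minimum and 14 did not. The set thus holds 51 of 49585 genes, 14466 of which reached the same minimum and were tested. The 47 P450 genes fall into 14 subfamilies, with 13 genes in Cyp2c, 9 in Cyp3a, 6 in Cyp2d, 4 in Cyp2a, 3 each in Cyp2b and Cyp2j, 2 in Cyp1a, and 1 each in Cyp1b, Cyp2e, Cyp2f, Cyp2g, Cyp2r, Cyp2s and Cyp2u. Apart from this minimum, the rule uses no measured value.

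These P450 enzymes sit in the endoplasmic reticulum of hepatocytes, where they oxidise drugs, toxicants, steroids, bile acids and fatty acids with electrons passed on by the reductase that Por encodes. Their transcription is driven by nuclear receptors that sense foreign and endogenous compounds, chiefly PXR (Nr1i2) and CAR (Nr1i3), which control Cyp3a and Cyp2b genes, and by the aryl hydrocarbon receptor (Ahr), which controls Cyp1a genes. In the mouse many Cyp2 and Cyp3a genes are tandem copies that switch on around weaning, and several are expressed mainly in females.

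The liver transcriptomes of 23 C57Bl/6J pups were sequenced, 1 library per pup, to compare exposure to maternal metabolic syndrome (MetS) before birth, after birth, at both times or never. Per the labels, future dams were kept from 3 weeks of age on a diet with 45% fat (MetS) or 10% fat (Ct) for 7 or 17 weeks and were mated to males on the control diet, and litters were reduced to 5 pups and moved to foster dams at birth. MetS-Ct pups (n = 6) were exposed before birth only, Ct-MetS pups (n = 6) while nursed by a MetS foster dam only, MetS-MetS pups (n = 5) at both times, and Ct-Ct pups (n = 6) at neither, so that all groups share cross-fostering, strain and weaning age (postnatal day 21, with MetS-Ct_97 at day 22). The length of the dam's diet and the litter are not given per pup in the sources used here, so that siblings within a group cannot be accounted for and p-values may be too small.

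Library totals ranged from 16876460 to 34527932 counts. All 23 libraries had the RNA pattern of females, with at least 15615 counts of Xist and at most 1 count of Ddx3y, Uty or Eif2s3y. Levels are given as CPM, a gene's share of its library's counts on a common scale with TMM factors applied, and fold changes are log2 values ± SE from edgeR's quasi-likelihood test, with p-values adjusted over all 14466 genes tested and a threshold of 0.05. Each SE was derived, as the size of the log2 fold change divided by the square root of the test's F statistic. Hepatocyte markers were high in every library (11 genes outside the P450 set summed to 149880 to 167650 CPM in MetS-Ct, 159780 to 174000 CPM in Ct-MetS, 155010 to 173980 CPM in MetS-MetS and 140180 to 162560 CPM in Ct-Ct), and 0 of these 11 passed in any comparison. Of the 11, 6 lay at an unadjusted p under 0.05 in MetS-MetS against Ct-Ct, a level whose share of all genes is not reported here. Kupffer cell and erythroid markers did move. Of the cholangiocyte, lymphocyte, and neutrophil and monocyte markers 0 were called in any comparison. At most 1 of 13 sinusoidal endothelial and 1 of 12 stellate markers were called in any comparison. Of 15 Kupffer cell markers 9 were higher in MetS-MetS against Ct-Ct, 7 in Ct-MetS against Ct-Ct and 7 with postnatal exposure. Of 14 tested erythroid markers 7 were higher in MetS-MetS against Ct-Ct, 5 in Ct-MetS against Ct-Ct, 10 in MetS-MetS against MetS-Ct and 7 with postnatal exposure. Of all genes, 3.06% were called higher in MetS-MetS against Ct-Ct. In either direction, 0.954% were called in Ct-MetS against Ct-Ct, 0.415% in MetS-MetS against MetS-Ct and 4.22% with postnatal exposure. The Kupffer markers summed to 888 to 946 CPM in MetS-Ct, 939.5 to 1316 CPM in Ct-MetS, 847 to 1185 CPM in MetS-MetS and 663 to 943 CPM in Ct-Ct, with none of the 15 at 0 throughout. The erythroid markers summed to 273 to 472 CPM, 279 to 695 CPM, 475 to 843 CPM and 305 to 889.7 CPM in the same order. Their part in the results below was not tested, and in whole liver fewer cells of a type and less RNA per cell cannot be told apart.

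Several libraries lay at an end of their group for many of the 51 genes. Among MetS-Ct pups MetS-Ct_97 was highest for 21 genes, among Ct-MetS pups Ct-MetS_50 was highest for 13 and lowest for 19, among MetS-MetS pups MetS-MetS_39 was highest for 12 and lowest for 18 and MetS-MetS_109 highest for 19, and among Ct-Ct pups Ct-Ct_33 was highest for 22 and lowest for 0.

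Upstream sequences are shown for 5 genes named in the results, of which edgeR called Cyp3a41b and Cyp2c70 in a comparison. The sequences come from RefSeq (GRCm38.p6), hold the 250 bases before the annotated start, read 5′ to 3′ on the gene's strand, and were found for 45 of the 51 genes (47 sequences), not for Cyp2c54, Cyp2c23 or Ahr. The first 3 belong to neighbouring Cyp3a genes of the female mouse liver, of which Cyp3a41a and Cyp3a41b are near-identical, that were high in MetS-MetS pups. They lie on the minus strand at chr5:145584731-145584980 (Cyp3a41b), chr5:145720137-145720386 (Cyp3a41a) and chr5:145805875-145806124 (Cyp3a44). Capitals mark the bases that differ from the Cyp3a41b line.
Cyp3a41b: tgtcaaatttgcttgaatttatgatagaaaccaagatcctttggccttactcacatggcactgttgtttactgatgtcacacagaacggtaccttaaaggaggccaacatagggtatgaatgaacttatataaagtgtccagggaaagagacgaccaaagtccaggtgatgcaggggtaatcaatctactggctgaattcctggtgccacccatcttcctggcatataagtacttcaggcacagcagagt
Cyp3a41a: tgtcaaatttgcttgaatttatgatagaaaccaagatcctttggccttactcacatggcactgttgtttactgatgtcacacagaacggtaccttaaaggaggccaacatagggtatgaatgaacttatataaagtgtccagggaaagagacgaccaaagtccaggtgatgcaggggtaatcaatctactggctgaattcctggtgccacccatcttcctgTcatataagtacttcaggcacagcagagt
Cyp3a44: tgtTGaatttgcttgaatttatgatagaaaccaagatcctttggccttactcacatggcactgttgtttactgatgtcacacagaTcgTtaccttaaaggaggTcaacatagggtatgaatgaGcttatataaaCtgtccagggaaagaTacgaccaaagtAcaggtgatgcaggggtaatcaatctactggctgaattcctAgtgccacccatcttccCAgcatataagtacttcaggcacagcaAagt
Cyp3a41a differs from Cyp3a41b at 1 of the 250 bases (99.6% identity) and Cyp3a44 at 13 (94.8%). The pair that follows shows Cyp2c70 (chr19:40187287-40187536, minus strand), the 1 gene of the set called lower in any comparison, with capitals at the HNF4 core motif, and Cyp1a1 (chr9:57697363-57697612, plus strand), the textbook target of the aryl hydrocarbon receptor, with capitals at that receptor's core motif.
Cyp2c70: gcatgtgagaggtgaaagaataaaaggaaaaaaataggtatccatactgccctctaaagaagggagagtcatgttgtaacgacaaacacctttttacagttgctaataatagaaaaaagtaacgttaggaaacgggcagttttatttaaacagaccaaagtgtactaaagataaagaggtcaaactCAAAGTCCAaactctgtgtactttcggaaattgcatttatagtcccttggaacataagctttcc
Cyp1a1: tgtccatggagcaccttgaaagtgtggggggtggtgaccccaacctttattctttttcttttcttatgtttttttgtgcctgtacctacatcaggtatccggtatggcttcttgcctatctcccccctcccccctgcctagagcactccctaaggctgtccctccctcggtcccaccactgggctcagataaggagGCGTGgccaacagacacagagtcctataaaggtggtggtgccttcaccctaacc

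Exact matches to 4 motifs were looked for on both strands of all 32851 upstream sequences of this length, without merging overlapping motifs. The HNF4 core CAAAGTCCA, the letters bound by the hepatocyte nuclear receptor HNF4α, occurred in 0.384% of all sequences and in 9 of the 47 of this set. Those 9 were Cyp2c40, Cyp2c67, Cyp2c68, Cyp2c69, Cyp2c70, Cyp3a11, Cyp3a16, Cyp3a41a and Cyp3a41b, most of which are copies of each other and so are not independent. In Cyp3a41a and Cyp3a41b the match began 95 bases before the start, while Cyp3a44 held none, 1 of its 13 differences lying within those letters. The nuclear receptor half-site AGGTCA (14.0% of all sequences) was found in 13 of the 47, among them Cyp2c70, Cyp3a11, Cyp3a25 and Cyp3a44. The receptor core GCGTG (28.2% of all) was found in 6 of the 47, from Cyp1a1, Cyp1b1, Cyp2b10, Cyp2c68, Cyp2j9 and Por, and the TATA box letters TATAAA (12.4%) in 23. A match describes the letters only.

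The P450 transcripts made up a small and variable share of liver messenger RNA, and the median share was highest in MetS-MetS pups. The 51 genes took a median of 1.97% of a library's counts in MetS-MetS pups, 1.59% in MetS-Ct pups, 1.36% in Ct-MetS pups and 1.48% in Ct-Ct pups. The 47 P450 genes summed to 15471, 19198, 19899, 20293 and 20468 CPM in the 5 MetS-MetS libraries, with 12437 to 22956 CPM (median 15230) in MetS-Ct, 9043 to 14169 CPM (median 12495) in Ct-MetS and 11260 to 19417 CPM (median 13705) in Ct-Ct. Each MetS-MetS library lay above all 6 Ct-MetS libraries, while the MetS-MetS range overlapped those of MetS-Ct and Ct-Ct. Sums are given without a test.

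By subfamily, Cyp2e1 and the 13 Cyp2c genes gave the largest sums. Cyp2e1, which oxidises ethanol and paracetamol, stood at 5101, 7402, 7608, 8433 and 8619 CPM in MetS-MetS, 3524 to 7579.8 CPM (median 4772) in MetS-Ct, 2738 to 5469 CPM (median 3557) in Ct-MetS and 2329.6 to 6058 CPM (median 4332) in Ct-Ct. The Cyp2c sum was 3169.9 to 5483 CPM (median 3519.8) in MetS-Ct, 1658 to 3975 CPM (median 3106) in Ct-MetS, 3213 to 3970 CPM (median 3785) in MetS-MetS and 3185 to 4502 CPM (median 3697) in Ct-Ct. Its groups overlapped throughout, and 1 Ct-MetS library stood low (Ct-MetS_169). The Cyp3a sum was 1806 to 5101 CPM (median 2776) in MetS-Ct, 1563 to 2555 CPM (median 1754) in Ct-MetS, 1928 to 4665 CPM (median 3111) in MetS-MetS and 1888 to 4039 CPM (median 2175) in Ct-Ct. For Cyp2a, Cyp2b, Cyp2e, Cyp2f and Cyp2j every MetS-MetS library lay above the Ct-Ct median, while the ranges of both groups overlapped.

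**Figure D1:**
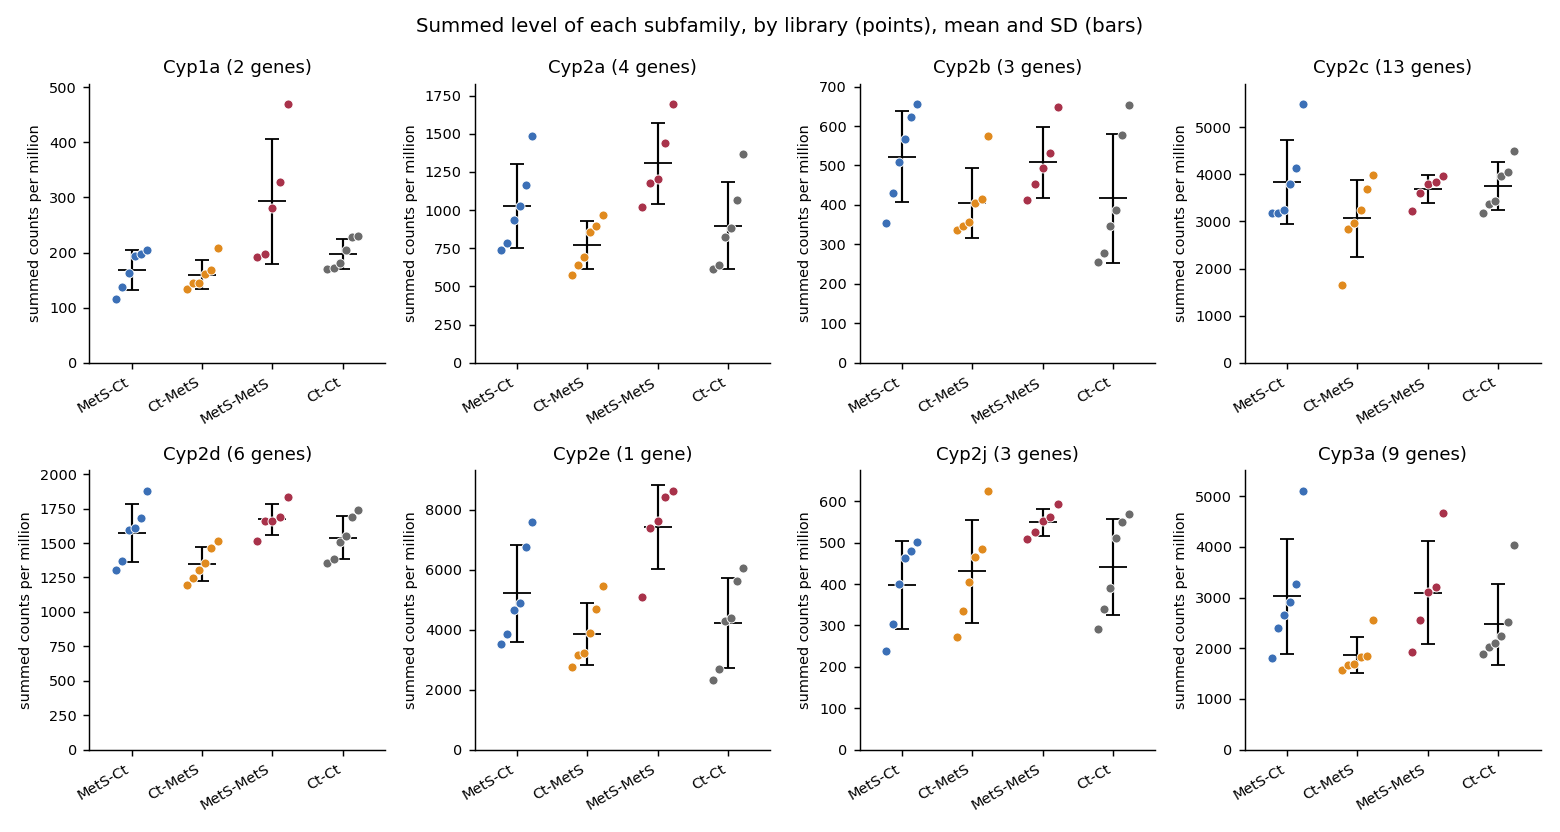
Summed CPM of the genes of 8 subfamilies (y axes, from 0) in each of 23 libraries, by group (x axes), with points for libraries and bars for the mean and SD. The 5 MetS-MetS libraries stand at 5101 to 8619 CPM for Cyp2e and 510 to 595 CPM for Cyp2j, against 2329.6 to 6058 CPM and 292 to 568.2 CPM in Ct-Ct.

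Per kilobase of exon, Cyp2e1 led in every group, with Cyp2c70 and Cyp2d26 next. Mean CPM per kilobase in MetS-MetS was highest for Cyp2e1 (3444 ± 650.3, SD), followed by Cyp2d26 (431 ± 21.5) and Cyp2c70 (429.9 ± 49.4), and in Ct-Ct for Cyp2e1 (1960.3 ± 697), Cyp2c70 (636 ± 153) and Cyp2d26 (361 ± 65.9). In MetS-MetS, Cyp2d26 and Cyp2c70 did not differ beyond their spread, while in Ct-Ct the SDs do not meet. Cyp3a25, Cyp3a11, Cyp2d10 and Cyp2c68 followed in Ct-Ct at 343 ± 138, 278 ± 103, 266 ± 23.3 and 255 ± 40.7 CPM per kilobase, values that do not differ beyond their spread. At the low end in Ct-Ct were Cyp1a1 (0.236 ± 0.113), Cyp2b10 (0.194 ± 0.156), Cyp1b1 (0.111 ± 0.0221) and Cyp3a41b (0.0732 ± 0.0431).

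Few single genes passed the test, and those that did were higher in MetS-MetS pups or with postnatal exposure, apart from Cyp2c70. In MetS-MetS against Ct-Ct 4 of 51 genes were called, all higher (7.84%, against 5.78% of all genes in either direction and 3.06% higher). They were Cyp2c54, Cyp2c23, Cyp3a41b and Ahr, and the nearest gene outside the threshold was Cyp2e1 (edgeR adjusted p = 0.0504). In MetS-MetS against MetS-Ct 1 gene was called, Cyp2c54 (1.96%, against 0.415% of all genes). For the postnatal exposure, taken as the mean of its effect in both prenatal states, 3 genes were called (5.88%, against 4.22% of all genes), Cyp2c54 and Cyp2c23 higher and Cyp2c70 lower. These shares rest on counts of 4, 1 and 3 and do not set these genes apart from all genes. Cyp3a41b, 1 of the 4, reached the count minimum only through its MetS-MetS counts. By DESeq2 the counts were 9 in MetS-MetS against Ct-Ct (17.6%, against 9.3% of all genes), 2 in MetS-MetS against MetS-Ct (3.92%, against 0.94%) and 6 for postnatal exposure (11.8%, against 7.18%), with Cyp1a2, Cyp2a12, Cyp2e1, Cyp3a44 and Nr1i3 added in the first of these, Cyp1a2 in the next, and Ahr, Cyp3a41b and Cyp3a44 for postnatal exposure. Limma-voom called 5 (9.8%, against 3.64% of all genes), 1 (1.96%, against 0.111%) and 5 (9.8%, against 3.97%).

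EdgeR called no gene of the set in the other comparisons. In Ct-MetS against Ct-Ct edgeR called 0 (0.954% of all genes), DESeq2 3 (Cyp2c23, Cyp2c54 and Cyp2c70, 2.94% of all) and limma-voom 0 (1.07%), and 11 lay at an unadjusted p under 0.05 (13.9% of all genes), 9 of them lower (6.57%). In MetS-Ct against Ct-Ct edgeR called 0 (0.0% of all genes), DESeq2 1 (0.083%) and limma-voom 0 (0.0%), and 7 lay at an unadjusted p under 0.05 (5.9%). For prenatal exposure, the mean of its effect in both postnatal states, edgeR called 0 (0.00691%), DESeq2 5 (0.968%) and limma-voom 0 (0.00691%). At an unadjusted p under 0.05 lay 19 of the 51 genes (37.3%, against 16.3% of all genes), 18 of them higher (8.61% of all genes). The interaction, which asks whether the postnatal change differs with prenatal exposure, gave 0 by edgeR (0.0% of all genes), DESeq2 (0.0277%) and limma-voom (0.0%), with 6 genes at an unadjusted p under 0.05 (5.44%).

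These counts depended on single libraries. The 4 genes called in MetS-MetS against Ct-Ct became 1 without Ct-Ct_129, 2 without Ct-Ct_139 or without MetS-MetS_154, 7 without MetS-Ct_149, 8 without Ct-Ct_33 and 9 without Ct-Ct_10. The 3 called with postnatal exposure became 1 without Ct-Ct_129, MetS-MetS_109 or MetS-MetS_154, 5 without Ct-MetS_50 and 6 without MetS-Ct_149. The 1 called in MetS-MetS against MetS-Ct became 2 without MetS-MetS_39 or MetS-MetS_157 and 0 without MetS-MetS_110 or without MetS-Ct_149, MetS-Ct_70, MetS-Ct_85 or MetS-Ct_97. In Ct-MetS against Ct-Ct 1 gene was called without Ct-Ct_33. Testing all genes without a count minimum ended the calls of Ahr and Cyp3a41b in MetS-MetS against Ct-Ct (edgeR adjusted p = 0.0564 and 0.053), of Cyp2c54 in MetS-MetS against MetS-Ct (0.07) and of Cyp2c23 for postnatal exposure (0.063), and fitting only the groups compared ended that of Ahr (0.0663).

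Across the set, log2 fold changes lay mostly above 0 for prenatal exposure and in MetS-MetS pups against either group. Prenatal exposure gave values above 0 for 45 of the 51 genes (88.2%, against 48.9% of all genes), with a median of 0.32 for the set and −0.0042 for all genes. In MetS-MetS against Ct-Ct 38 genes lay above 0 (74.5%, against 49.4%), with a median of 0.38, against −0.0038 for all genes. MetS-MetS against MetS-Ct gave 33 above 0 (64.7%, against 49.9%) and a median of 0.22, MetS-Ct against Ct-Ct 32 above 0 (62.7%, against 49.6%) and a median of 0.14, Ct-MetS against Ct-Ct 18 above 0 (35.3%, against 47.0%) and a median of −0.16, and postnatal exposure 24 above 0 (47.1%, against 48.0%) and a median of −0.01. The 3 comparisons against Ct-Ct share its 6 libraries, and the genes share every library, so that these counts are descriptions. Groups that did not overlap were seen for 6 genes in MetS-MetS against Ct-Ct, all higher (11.8%, against 2.44% of all genes higher), and for 3 in MetS-MetS against MetS-Ct, all higher (5.88%, against 1.04%). Among the 6 is Cyp3a41b, which reached the count minimum only through its MetS-MetS counts.

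**Figure D2:**
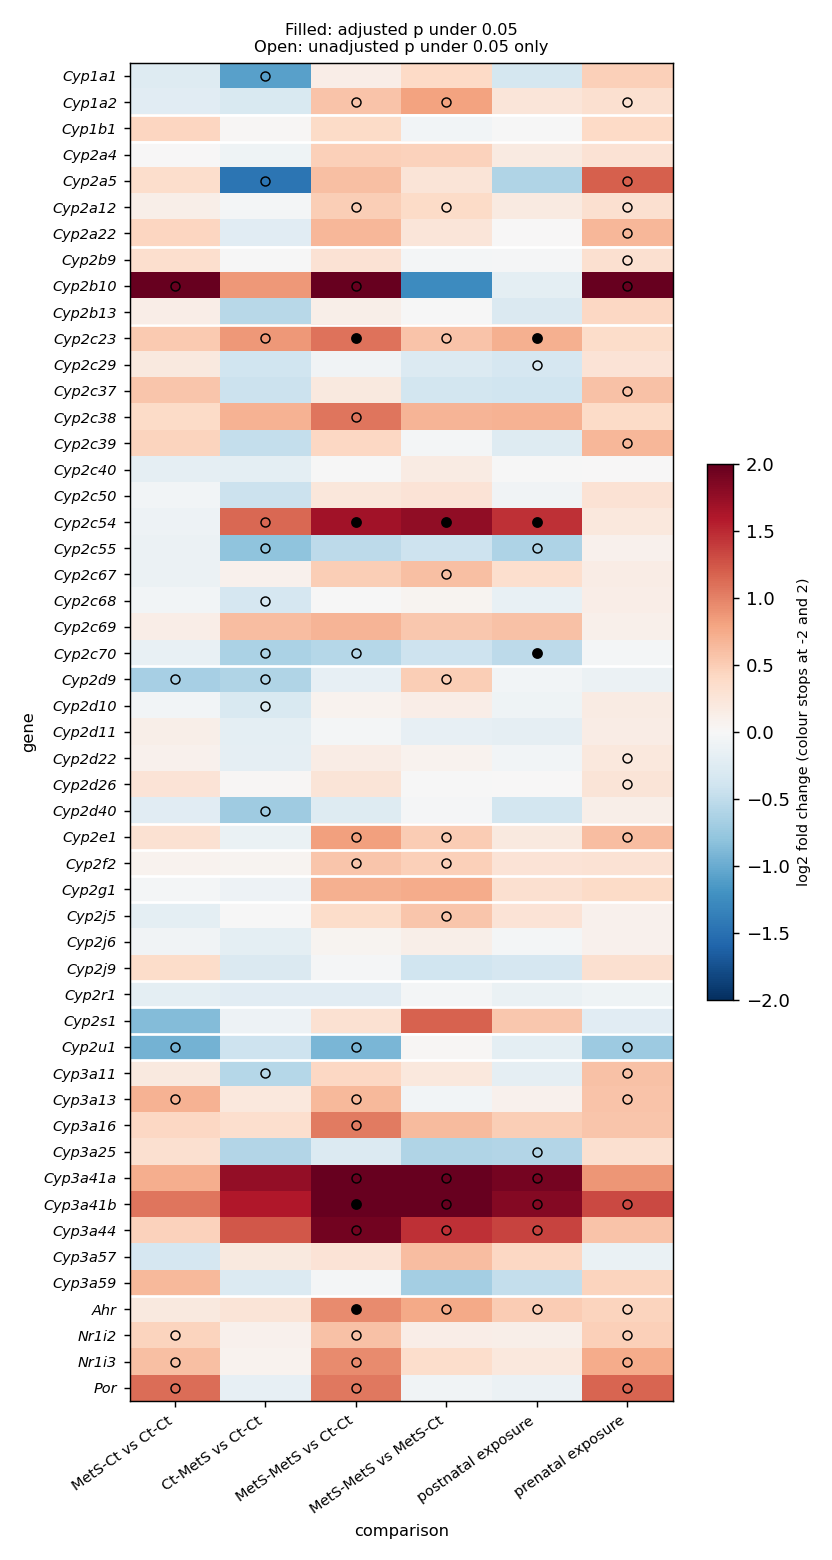
Log2 fold change (colour, from −2 to 2) of the 51 genes (rows, by subfamily, with the regulators and Por at the foot) in 6 comparisons (columns), with filled circles at an adjusted p under 0.05 and open circles at an unadjusted p under 0.05 only. Filled circles mark 4 genes in MetS-MetS against Ct-Ct, 1 in MetS-MetS against MetS-Ct and 3 for postnatal exposure.

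Cyp2c54 was called in 3 comparisons. It encodes an epoxygenase of arachidonic and linoleic acid in a row of Cyp2c genes (ENSMUSG00000067225, chr19:40037940-40073827, minus strand, GENCODE M21). Its level was 53.9, 63.6, 65.7, 76.5 and 99.5 CPM in MetS-MetS, 14.6 to 77.5 CPM (median 48.8) in Ct-MetS, 18.0 to 28.7 CPM (median 19.6) in MetS-Ct and 9.12 to 42.8 CPM (median 20.2) in Ct-Ct. All MetS-MetS libraries lay above all MetS-Ct and all Ct-Ct libraries, whereas Ct-MetS reached from the Ct-Ct range up to that of MetS-MetS. The log2 fold change was 1.68 ± 0.35 (edgeR adjusted p = 0.0129) in MetS-MetS against Ct-Ct (a fold of 3.20), 1.78 ± 0.35 (edgeR adjusted p = 0.0363) in MetS-MetS against MetS-Ct and 1.46 ± 0.24 (edgeR adjusted p = 0.00269) for postnatal exposure, where 10 of 11 exposed libraries lay above the mean of the unexposed. Ct-MetS against Ct-Ct gave 1.14 ± 0.33 (edgeR adjusted p = 0.103), and MetS-Ct against Ct-Ct −0.10 ± 0.33 (edgeR adjusted p = 0.973). The calls in MetS-MetS against Ct-Ct and for postnatal exposure held in all 23 fits that left out 1 library. The call in MetS-MetS against MetS-Ct did not hold without MetS-MetS_110 (edgeR adjusted p = 0.0634) or MetS-Ct_149 (0.0666), MetS-Ct_85 (0.0744), MetS-Ct_70 (0.0892) or MetS-Ct_97 (0.0982). Nor did it hold without both MetS-Ct_70 and MetS-Ct_97 (0.205), a setting chosen after seeing the data.

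Of 50-base stretches of the Cyp2c54 transcripts 25.7% also occur in another gene, mostly Cyp2c50, so that counts could be split or dropped between copies. The sum of Cyp2c37, Cyp2c50 and Cyp2c54 was 451, 660.0, 739, 783 and 922 CPM in MetS-MetS, 226 to 600.2 CPM (median 485) in Ct-MetS, 306 to 1396 CPM (median 512) in MetS-Ct and 436 to 745 CPM (median 567.6) in Ct-Ct, with all groups overlapping. Cyp2c50 itself stood at 196, 288, 326, 342 and 370.4 CPM in MetS-MetS and 215 to 338 CPM (median 247) in Ct-Ct (0.22 ± 0.23, edgeR adjusted p = 0.596).

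Cyp2c23, an epoxygenase of arachidonic acid whose transcripts share no 50-base stretch with another gene, was also higher (ENSMUSG00000025197, chr19:44005022-44029208, minus strand). It was at 62.7, 114, 119, 123.1 and 141 CPM in MetS-MetS, 54.4 to 160.1 CPM (median 93.8) in Ct-MetS, 34.9 to 118 CPM (median 74.2) in MetS-Ct and 42.9 to 61.6 CPM (median 52.1) in Ct-Ct. The lowest MetS-MetS library (MetS-MetS_39) was just above the highest Ct-Ct library, and MetS-Ct reached from below the Ct-Ct range into that of MetS-MetS. Its log2 fold change was 1.09 ± 0.26 (edgeR adjusted p = 0.0211) in MetS-MetS against Ct-Ct and 0.72 ± 0.18 (edgeR adjusted p = 0.0278) for postnatal exposure, with 9 of 11 exposed libraries above the mean of the unexposed. For single exposures it was 0.87 ± 0.25 (edgeR adjusted p = 0.0971) in Ct-MetS and 0.52 ± 0.25 (edgeR adjusted p = 0.825) in MetS-Ct. The call in MetS-MetS was lost without Ct-Ct_129 (edgeR adjusted p = 0.0553), and the postnatal call without Ct-Ct_129 (0.0502), MetS-MetS_109 (0.0508) or MetS-MetS_154 (0.053).

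Cyp2c70 went the other way. In mice its product makes muricholic acids, the bile acids particular to rodents (ENSMUSG00000060613, chr19:40153353-40187333, minus strand). The level was 709, 835, 855, 876 and 983 CPM in MetS-MetS, 431 to 1155 CPM (median 826) in Ct-MetS, 865 to 1527 CPM (median 1089.9) in MetS-Ct and 937 to 1689.6 CPM (median 1130.4) in Ct-Ct. Both groups nursed by MetS dams had medians below those of both groups nursed by Ct dams, with overlap. Postnatal exposure gave −0.52 ± 0.14 (edgeR adjusted p = 0.0369), all 11 exposed libraries lying below the mean of the 12 unexposed, while prenatal exposure gave −0.04 ± 0.14 (edgeR adjusted p = 0.9). Against Ct-Ct, the MetS-MetS pups gave −0.57 ± 0.20 (edgeR adjusted p = 0.093) and the Ct-MetS pups −0.63 ± 0.19 (edgeR adjusted p = 0.119). The postnatal call was lost in 10 of 23 fits that left out 1 library, with edgeR adjusted p between 0.0517 and 0.0717. Those libraries were MetS-MetS_109 (0.0565), MetS-MetS_110 (0.0579), MetS-MetS_154 (0.0717), MetS-MetS_157 (0.0559), Ct-MetS_145 (0.0612), Ct-MetS_24 (0.0632), MetS-Ct_85 (0.0564), MetS-Ct_97 (0.0632), Ct-Ct_129 (0.0517) and Ct-Ct_130 (0.0586). The postnatal call of Cyp2c70 was also lost without both MetS-Ct_70 and MetS-Ct_97 (edgeR adjusted p = 0.0816), a setting chosen after seeing the data.

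**Figure D3:**
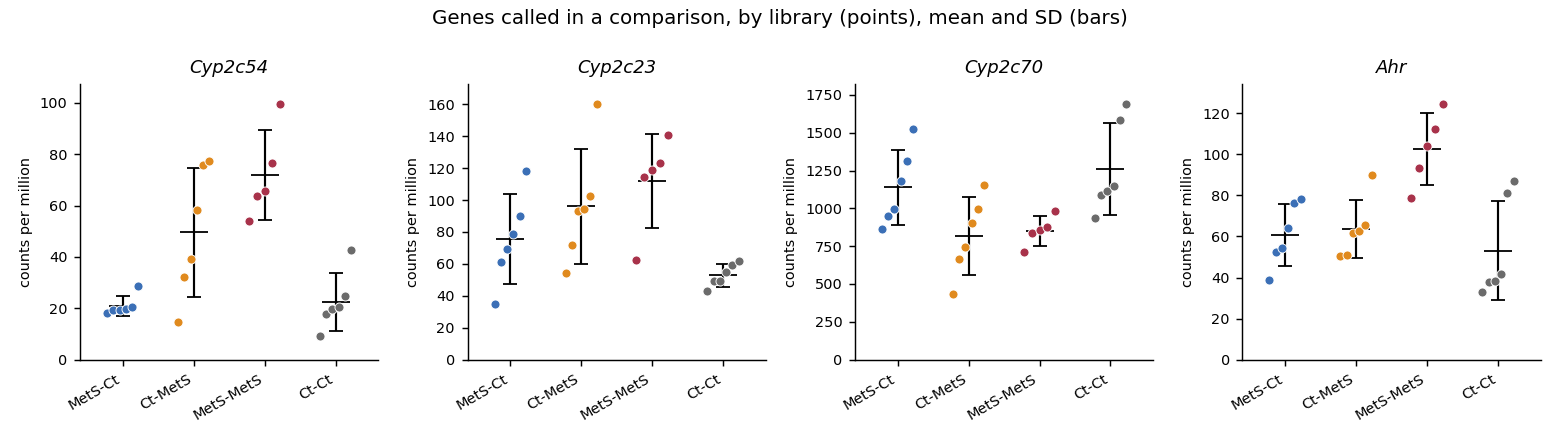
CPM (y axes, from 0) of Cyp2c54, Cyp2c23, Cyp2c70 and Ahr in each of 23 libraries, by group (x axes), with points for libraries and bars for the mean and SD. Cyp2c54 is at 53.9 to 99.5 CPM in MetS-MetS and 9.12 to 42.8 CPM in Ct-Ct, and Cyp2c70 is at 709 to 983 CPM in MetS-MetS and 937 to 1689.6 CPM in Ct-Ct.

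The other 10 Cyp2c genes were called by edgeR in no comparison. For postnatal exposure their log2 fold changes ran from −0.61 ± 0.25 for Cyp2c55 (edgeR adjusted p = 0.159) to 0.69 ± 0.33 for Cyp2c38 (edgeR adjusted p = 0.239). Cyp2c29, an abundant epoxygenase that CAR can induce, stood at 538, 567, 610.1, 689 and 801 CPM in MetS-MetS, 353 to 724 CPM (median 509.7) in Ct-MetS, 506 to 1248 CPM (median 634) in MetS-Ct and 468 to 833 CPM (median 705) in Ct-Ct (−0.34 ± 0.15, edgeR adjusted p = 0.2 for postnatal exposure). MetS-Ct_70 and MetS-Ct_97 were its highest libraries, and likewise those of Cyp2c37, at 705 and 998 CPM against at most 274 in the other 4 MetS-Ct libraries. Cyp2c69 varied most among Ct-MetS pups, between 65.3 and 789 CPM. Its MetS-MetS libraries (324, 324, 392, 433 and 552 CPM) lay above the Ct-Ct range of 168 to 318 CPM (median 269) without passing the test (0.68 ± 0.43, edgeR adjusted p = 0.34). The same held for Cyp2c38 (1.07 ± 0.49, edgeR adjusted p = 0.178), at 4.66, 5.01, 6.23, 6.93 and 8.68 CPM in MetS-MetS and 1.31 to 4.49 CPM (median 3.09) in Ct-Ct, which passed when only these groups were fitted (edgeR adjusted p = 0.0408). Cyp2c40, Cyp2c67, Cyp2c68 and Cyp2c69 share 43.3% to 60.3% of their 50-base stretches with another gene, and their single values are uncertain.

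Among the Cyp3a genes the female-type group of Cyp3a41a, Cyp3a41b and Cyp3a44 differed most between groups. Cyp3a41b (ENSMUSG00000075552, chr5:145558664-145584730, minus strand) was called in MetS-MetS against Ct-Ct (3.15 ± 0.79, edgeR adjusted p = 0.0252) on low counts, namely 13, 23, 23, 24 and 71 counts in the MetS-MetS libraries and 1, 2, 4, 4, 6 and 8 in the Ct-Ct libraries. Every MetS-MetS library lay above every Ct-Ct library, also in CPM. As the gene reached the count minimum only through its MetS-MetS counts, this separation is a description and no support for the call. Of its 50-base stretches 93.5% occur in Cyp3a41a, so the 2 genes cannot be told apart by most reads and are better read as a sum. That sum was 4.79, 7.87, 10.6, 11.998 and 28.5 CPM in MetS-MetS, 0.135, 2.35, 2.78, 7.19, 11.8 and 11.96 in Ct-MetS, 0.0370, 0.301, 0.302, 1.23, 4.72 and 11.7 in MetS-Ct and 0.459, 0.845, 0.963, 1.82, 1.99 and 4.67 in Ct-Ct. All 5 MetS-MetS libraries of the sum lay above all 6 Ct-Ct libraries, and both groups with a single exposure spread from below the Ct-Ct range to within that of MetS-MetS. Cyp3a41a alone, at 98.6% shared stretches, gave 2.79 ± 0.99 (edgeR adjusted p = 0.0923), and passed when only these groups were fitted (edgeR adjusted p = 0.0364). The call for Cyp3a41b was lost without Ct-Ct_129 (edgeR adjusted p = 0.0515), Ct-Ct_139 (0.0557) or MetS-MetS_154 (0.0608).

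Cyp3a44, the third gene of this group, had its group medians in the same order. It stood at 75.5, 129.5, 138.9, 163 and 215 CPM in MetS-MetS, 30.6, 65.2, 83.0, 107, 114 and 138 in Ct-MetS, 5.47, 11.3, 12.8, 43.8, 78.4 and 162 in MetS-Ct and 20.8, 26.2, 29.0, 29.99, 48.3 and 72.2 in Ct-Ct. The MetS-MetS and Ct-Ct libraries did not overlap, but neither MetS-MetS against Ct-Ct (1.94 ± 0.63, edgeR adjusted p = 0.0692) nor postnatal exposure (1.36 ± 0.43, edgeR adjusted p = 0.0767) passed. DESeq2 called it in both (DESeq2 adjusted p = 0.0269 and 0.0272) and limma-voom for postnatal exposure (limma-voom adjusted p = 0.0243). In MetS-MetS against Ct-Ct it also passed when only these groups were fitted (edgeR adjusted p = 0.0217). It passed too without both MetS-Ct_70 and MetS-Ct_97 (0.0307), a setting chosen after seeing the data. Among MetS-Ct pups it ran from 5.47 CPM in MetS-Ct_70 to 162 CPM in MetS-Ct_149, so that this group reached below the Ct-Ct range and into that of MetS-MetS.

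The remaining Cyp3a genes were not called by edgeR. Cyp3a11, the main adult Cyp3a gene and a PXR target, was at 983, 1524, 1962, 2104 and 2849.7 CPM in MetS-MetS, 742 to 1355 CPM (median 886) in Ct-MetS, 722 to 2286 CPM (median 1584) in MetS-Ct and 1059.5 to 2438 CPM (median 1232) in Ct-Ct. Of the Ct-MetS libraries 5 of 6 lay below every Ct-Ct library (−0.56 ± 0.26, edgeR adjusted p = 0.338), while prenatal exposure gave 0.58 ± 0.19 (edgeR adjusted p = 0.184). Cyp3a16, which in mice is expressed mainly around birth, was at 120.5, 139.1, 219.9, 239 and 243 CPM in MetS-MetS and 34.98 to 151 CPM (median 83.0) in Ct-Ct, with overlap (1.04 ± 0.42, edgeR adjusted p = 0.127). Cyp3a25 leaned the other way with postnatal exposure, at 350.0 to 1072 CPM (median 454) in exposed and 415 to 2054 CPM (median 690.5) in unexposed pups (−0.59 ± 0.25, edgeR adjusted p = 0.176). Cyp3a13 was at 105 to 301 CPM (median 190.3) in pups exposed before birth and 80.1 to 207 CPM (median 134) in those not so exposed (0.56 ± 0.16, edgeR adjusted p = 0.164, 10 of 11 exposed libraries above the mean of the others), and was called by DESeq2 (DESeq2 adjusted p = 0.0476).

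**Figure D4:**
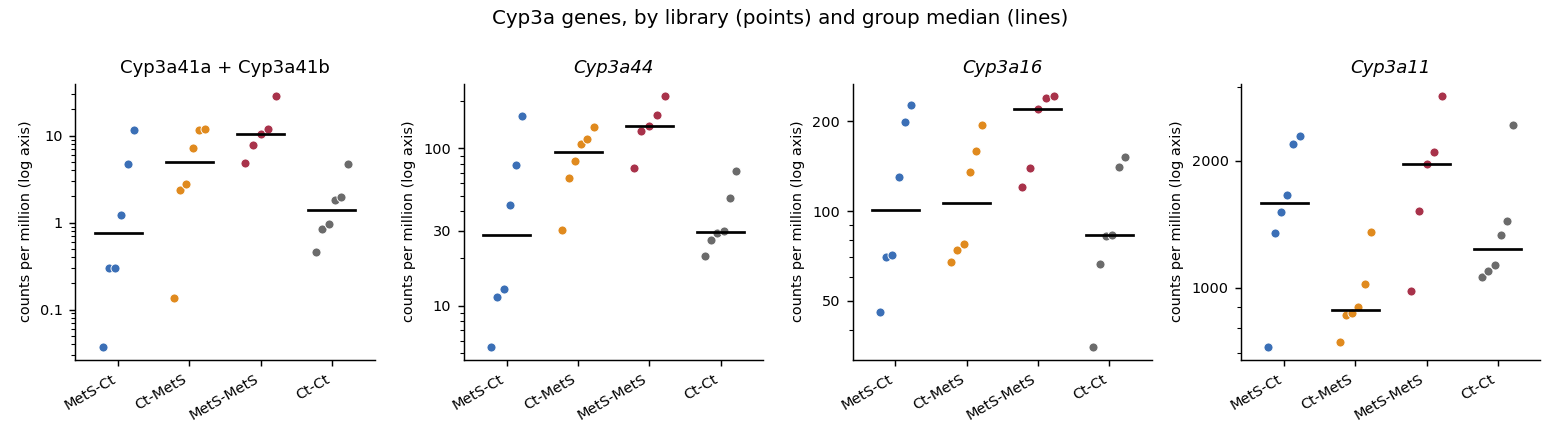
CPM (log axes) of Cyp3a41a and Cyp3a41b summed, Cyp3a44, Cyp3a16 and Cyp3a11 in each of 23 libraries, by group (x axes), with points for libraries and lines for group medians. Cyp3a44 is at 75.5 to 215 CPM in MetS-MetS and 20.8 to 72.2 CPM in Ct-Ct, while Cyp3a16 and Cyp3a11 overlap between these groups.

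Of the regulators, Ahr was the 1 called. It encodes the aryl hydrocarbon receptor (ENSMUSG00000019256, chr12:35497974-35535038, minus strand) and stood at 78.9, 93.6, 104, 112 and 125 CPM in MetS-MetS, 39.03 to 78.2 CPM (median 59.4) in MetS-Ct, 50.7 to 89.8 CPM (median 62.1) in Ct-MetS and 32.95 to 86.8 CPM (median 39.9) in Ct-Ct. Ct-Ct fell into 4 libraries at 32.95 to 41.5 CPM and 2 at 81.0 and 86.8 CPM, the higher pair reaching into the MetS-MetS range. The log2 fold change was 0.95 ± 0.24 (edgeR adjusted p = 0.0255) in MetS-MetS against Ct-Ct and 0.76 ± 0.24 (edgeR adjusted p = 0.169) in MetS-MetS against MetS-Ct, where the groups did not overlap. The call was lost without MetS-MetS_154 (edgeR adjusted p = 0.0503), Ct-Ct_4 (0.0581), Ct-Ct_139 (0.0615), MetS-MetS_110 (0.0678) or Ct-Ct_129 (0.0684).

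Its textbook Cyp1 targets were not called by edgeR. Cyp1a2, the constitutive hepatic Cyp1a gene, was at 191, 197, 279.7, 327 and 467 CPM in MetS-MetS, 115 to 204 CPM (median 178) in MetS-Ct, 133 to 208 CPM (median 153) in Ct-MetS and 169.6 to 229 CPM (median 193) in Ct-Ct. The other 3 groups overlapped each other, and 3 of 5 MetS-MetS libraries exceeded every library outside their group (0.57 ± 0.19, edgeR adjusted p = 0.0739 against Ct-Ct and 0.80 ± 0.19, edgeR adjusted p = 0.0605 against MetS-Ct). DESeq2 called Cyp1a2 in both (DESeq2 adjusted p = 0.0435 and 0.0115). Cyp1a1, whose upstream sequence above holds the receptor's core, had 1, 7, 13, 14 and 40 counts in MetS-MetS and 10, 13, 14, 16, 22 and 32 in Ct-Ct, and at these low counts no difference was detectable (0.14 ± 0.48, edgeR adjusted p = 0.892). Cyp1b1 was at 0.379 to 1.48 CPM in MetS-MetS and 0.505 to 0.847 CPM in Ct-Ct (0.38 ± 0.31, edgeR adjusted p = 0.468). Of 10 listed AhR target genes, these Cyp1 genes among them, 6 were tested. In MetS-MetS against Ct-Ct 1 was called, Aldh3a1 (edgeR adjusted p = 0.0244), a call that rests on MetS-MetS_110 at 19.1 CPM, with the other 4 MetS-MetS libraries at 0 to 0.0547 CPM and all Ct-Ct libraries at 0. Over the 6 genes the median was 0.26 on the log2 scale.

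CAR and PXR had higher values in both groups exposed before birth. Nr1i3 (CAR) was at 235, 244, 344, 368 and 383 CPM in MetS-MetS, 151 to 321 CPM (median 274) in MetS-Ct, 109.1 to 209.9 CPM (median 176) in Ct-MetS and 76.9 to 258 CPM (median 158) in Ct-Ct. It missed the threshold in MetS-MetS against Ct-Ct (0.94 ± 0.29, edgeR adjusted p = 0.0528) and for prenatal exposure (0.74 ± 0.20, edgeR adjusted p = 0.156), where 9 of 11 exposed libraries lay above the mean of the others. Nr1i2 (PXR) was at 71.2 to 179 CPM (median 126) in pups exposed before birth and 57.3 to 129.2 CPM (median 89.8) in those not so exposed (0.47 ± 0.15, edgeR adjusted p = 0.176). Within Ct-Ct, the libraries Ct-Ct_129 and Ct-Ct_139 held the lowest values of both receptors, at 99.0 and 76.9 CPM of Nr1i3 and 61.7 and 57.3 CPM of Nr1i2. DESeq2 called Nr1i3 in both comparisons (DESeq2 adjusted p = 0.0144 and 0.0324), while limma-voom called it in MetS-MetS against Ct-Ct (limma-voom adjusted p = 0.045) and not for prenatal exposure (0.171).

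Por, the P450 reductase, and Cyp2b10, the classical CAR target, had the smallest p-values of the set for prenatal exposure. Por was at 346, 647, 656, 779.7 and 844 CPM in MetS-MetS, 189.7, 443, 638, 780.4, 904 and 1156 in MetS-Ct, 157.4, 191, 265, 277, 369 and 432 in Ct-MetS and 149.8, 156, 182, 263, 471 and 672 in Ct-Ct. Pups exposed before birth stood at 189.7 to 1156 CPM (median 656) and the others at 149.8 to 672 CPM (median 264), with 10 of 11 exposed libraries above the mean of the others (1.17 ± 0.29, edgeR adjusted p = 0.156). Cyp2b10 was low throughout, with 5, 15, 24, 55 and 67 counts in MetS-MetS, 24, 29, 47, 74, 94 and 377 in MetS-Ct, 7, 7, 12, 24, 27 and 61 in Ct-MetS and 1, 4, 7, 12, 18 and 25 in Ct-Ct. MetS-Ct_53 alone reached 13.3 CPM, and the other 22 libraries stayed at or below 3.48 CPM. Log2 fold changes were 3.25 ± 0.77 (edgeR adjusted p = 0.404) in MetS-Ct against Ct-Ct and 2.19 ± 0.54 (edgeR adjusted p = 0.156) for prenatal exposure. DESeq2 called Cyp2b10 in both (DESeq2 adjusted p = 0.0316 and 0.024) and Por for prenatal exposure (0.0277), while limma-voom called neither. Cyp2b9, a female-type gene, was at 315 to 610.2 CPM (median 466.2) in pups exposed before birth and 237 to 593 CPM (median 352) in the others (0.32 ± 0.15, edgeR adjusted p = 0.301), and Cyp2b13 gave 0.41 ± 0.24 (edgeR adjusted p = 0.398).

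**Figure D5:**
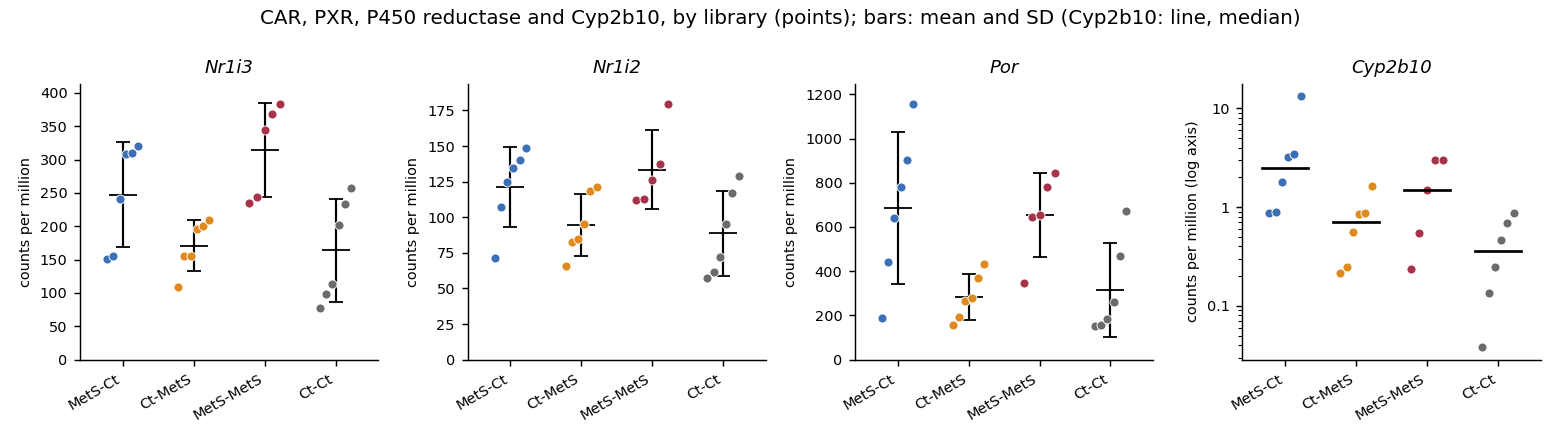
CPM of Nr1i3, Nr1i2, Por (y axes from 0) and Cyp2b10 (log axis) in each of 23 libraries, by group (x axes), with points for libraries, bars for the mean and SD, and a line for the Cyp2b10 median. Both groups exposed before birth have higher medians than Ct-MetS and Ct-Ct, with overlap, and 1 MetS-Ct library stands at 13.3 CPM of Cyp2b10.

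Cyp2e1 came closest to a call in MetS-MetS against Ct-Ct (0.81 ± 0.24, edgeR adjusted p = 0.0504). Its values above show 4 of 5 MetS-MetS libraries above every Ct-Ct library and MetS-MetS_157 inside the Ct-Ct range. Prenatal exposure gave 0.62 ± 0.17 (edgeR adjusted p = 0.156) and postnatal exposure 0.19 ± 0.17 (edgeR adjusted p = 0.553). In MetS-MetS against Ct-Ct it passed with RLE factors (edgeR adjusted p = 0.0493) and by DESeq2 (DESeq2 adjusted p = 0.0165), but not by limma-voom. It also passed without both MetS-Ct_70 and MetS-Ct_97 (edgeR adjusted p = 0.0385), a setting chosen after seeing the data. DESeq2 also called it for prenatal exposure (DESeq2 adjusted p = 0.0347).

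In Cyp2a, Cyp2d, Cyp2f and Cyp2j no gene was called by edgeR. Cyp2a5, which hydroxylates coumarin and nicotine, spread widely, at 69.5, 179, 190.1, 221 and 426 CPM in MetS-MetS, 57.2, 118, 141, 142, 243 and 386 in MetS-Ct, 21.9, 31.6, 56.2, 58.4, 59.6 and 84.8 in Ct-MetS and 31.9, 54.5, 95.4, 157.2, 195 and 323 in Ct-Ct. Its log2 fold changes of 1.202 ± 0.38 (edgeR adjusted p = 0.174) for prenatal exposure and −1.46 ± 0.53 (edgeR adjusted p = 0.191) in Ct-MetS against Ct-Ct did not pass. Cyp2a4, a female-type steroid hydroxylase that shares 38.0% of its 50-base stretches, mostly with Cyp2a5, was at 37.4, 131, 139.8, 144 and 182 CPM in MetS-MetS and 36.7 to 138 CPM (median 93.8) in Ct-Ct (0.47 ± 0.58, edgeR adjusted p = 0.663). Cyp2a12, a bile acid and steroid hydroxylase, stood at 647, 687, 761, 838 and 846 CPM in MetS-MetS and 403 to 719 CPM (median 532) in Ct-Ct (0.50 ± 0.15, edgeR adjusted p = 0.0543). DESeq2 called Cyp2a12 there, and limma-voom did not.

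Cyp2d9, known as a male-biased steroid hydroxylase, had lower values after either single exposure. It was at 88.1, 125, 134, 155, 183 and 185 CPM in MetS-Ct, 95.8, 111, 159, 162, 167 and 208 in Ct-MetS, 128.8, 175, 214, 224 and 278 in MetS-MetS and 178, 211, 229.9, 239.7, 242 and 272 in Ct-Ct. All 6 MetS-Ct and all 6 Ct-MetS libraries lay below the Ct-Ct mean, with overlap between groups (−0.66 ± 0.20, edgeR adjusted p = 0.825 in MetS-Ct and −0.61 ± 0.20, edgeR adjusted p = 0.14 in Ct-MetS). Cyp2d10, Cyp2d26 and Cyp2d40 gave −0.31 ± 0.11 (edgeR adjusted p = 0.185), 0.02 ± 0.14 (edgeR adjusted p = 0.972) and −0.71 ± 0.34 (edgeR adjusted p = 0.345) in Ct-MetS against Ct-Ct. Cyp2f2, the periportal and airway enzyme that activates naphthalene, was at 364, 380.0, 485, 573 and 679.6 CPM in MetS-MetS and 284 to 378 CPM (median 349.9) in Ct-Ct (0.55 ± 0.22, edgeR adjusted p = 0.12). Cyp2j5, an epoxygenase, was at 423, 440.5, 468, 474 and 509.6 CPM in MetS-MetS and 179 to 409 CPM (median 349.9) in MetS-Ct, which did not overlap (0.56 ± 0.24, edgeR adjusted p = 0.303), and at 224 to 469.6 CPM (median 363) in Ct-Ct. Cyp2u1, a fatty acid hydroxylase, ran lower in pups exposed before birth, at 4.79 to 20.6 CPM (median 12.4) against 7.67 to 34.1 CPM (median 19.5) in the others, with 11 of 11 exposed libraries below the mean of the others (−0.72 ± 0.25, edgeR adjusted p = 0.199).

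Among the interactions, none of which passed, Cyp1a2 and Cyp2d9 had the smallest p-values (1.10 ± 0.27, edgeR adjusted p = 0.621 and 1.10 ± 0.28, edgeR adjusted p = 0.873). For both, Ct-MetS minus Ct-Ct was below 0 (−0.30 ± 0.18 and −0.61 ± 0.20) and MetS-MetS minus MetS-Ct above 0 (0.80 ± 0.19 and 0.49 ± 0.20). Over the 51 genes the median interaction was 0.39, with 40 above 0 (78.4%, against 50.7% of all genes), and the median of all genes was 0.0039.

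Genes that work with these enzymes were read from lists. Of all genes, 5.78% were called in MetS-MetS against Ct-Ct (3.06% higher), 4.22% with postnatal exposure and 0.00691% for prenatal exposure. Of 20 genes for electron supply and haem (Por among them) 0 were called in any comparison. At an unadjusted p under 0.05 lay 6 for prenatal exposure (16.3% of all genes). In MetS-MetS against Ct-Ct 6 did so, where that share of all genes is not reported here. In that list Alas1, the rate-setting enzyme of haem synthesis and a CAR target, was at 237, 265, 789, 827 and 1057 CPM in MetS-MetS and 36.5, 68.5, 73.6, 136, 287 and 581 in Ct-Ct, and gave 1.29 ± 0.51 (edgeR adjusted p = 0.232) for prenatal exposure. The Alas1 values of MetS-Ct and Ct-MetS, which also enter the prenatal contrast, are not reported here. Of the 16 tested partners and cofactors of the receptors 1 was called lower, Nr0b2, which encodes the repressor SHP and fell in MetS-MetS against Ct-Ct (−1.24 ± 0.36, edgeR adjusted p = 0.0455), at 5.52, 5.94, 8.96, 13.5 and 15.7 CPM in MetS-MetS and 15.7, 17.6, 21.2, 21.5, 30.3 and 35.3 in Ct-Ct, the highest MetS-MetS library (15.65 CPM) lying just below the lowest Ct-Ct library (15.75 CPM).

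Of 21 tested CAR and PXR targets outside the P450 families 0 passed in MetS-MetS against Ct-Ct and 1 for postnatal exposure (4.22% of all genes), the oestrogen sulfotransferase Sult1e1, which fell (−1.79 ± 0.48, edgeR adjusted p = 0.0397) and was at 0.619, 0.806, 0.903, 0.984 and 2.64 CPM in MetS-MetS and 0.927, 1.92, 2.54, 3.43, 4.97 and 8.03 in Ct-Ct. The Sult1e1 values of Ct-MetS and MetS-Ct, which also enter the postnatal contrast, are not reported here. Of 39 tested phase II conjugation genes 3 rose and 1 fell in MetS-MetS against Ct-Ct (5.78% of all genes in either direction, median 0.27). The 3 were Ephx2 (1.12 ± 0.22, edgeR adjusted p = 0.0108), the soluble epoxide hydrolase that acts on the epoxides of fatty acids which Cyp2c and Cyp2j enzymes make, Ugt3a1 (1.28 ± 0.34, edgeR adjusted p = 0.0318) and Ugt3a2 (0.55 ± 0.15, edgeR adjusted p = 0.0334), and the lower gene was Gstm7 (−0.50 ± 0.13, edgeR adjusted p = 0.0322). With postnatal exposure (4.22% of all genes called) 1 of the 39 rose, Ugt2b37 (2.02 ± 0.50, edgeR adjusted p = 0.0272), and 3 fell, Tpmt (−0.26 ± 0.07, edgeR adjusted p = 0.0296), Gstm7 (−0.33 ± 0.09, edgeR adjusted p = 0.0455) and Sult1e1. Among 23 tested P450 genes of other families 2 rose and 1 fell in MetS-MetS against Ct-Ct (5.78% of all genes called), namely Cyp4v3 (0.52 ± 0.12, edgeR adjusted p = 0.0165), Cyp4a10 (2.88 ± 0.82, edgeR adjusted p = 0.0429) and, lower, Cyp20a1 (−0.44 ± 0.10, edgeR adjusted p = 0.0201).

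Lists of PPARα and NRF2 targets and of sex-biased and zonal liver genes were read in the same way. All lists were chosen with earlier results of these data known. The shares of all genes given above hold for each comparison named here. Of 25 PPARα targets 17 were higher in MetS-MetS against Ct-Ct (3.06% of all genes, median 0.91) and 10 with postnatal exposure (4.22% of all genes in either direction, median 0.54), and 0 were lower. Of 19 tested NRF2 targets 3 were lower in MetS-MetS against Ct-Ct (median −0.09), Pgd (−1.51 ± 0.38, edgeR adjusted p = 0.0254), G6pdx (−2.40 ± 0.61, edgeR adjusted p = 0.0276) and Me1 (−1.79 ± 0.52, edgeR adjusted p = 0.047), whose enzymes supply the NADPH that the reductase uses. Female-biased liver genes, 10 of which belong to the P450 set, had 2 of 22 called higher in MetS-MetS against Ct-Ct (Cyp3a41b and Acot3). Of these, Cyp3a41b reached the count minimum only through its MetS-MetS counts, and Acot3 is also in the PPARα list. With postnatal exposure 2 were called higher (A1bg, 2.52 ± 0.49, edgeR adjusted p = 0.00831, and Abcd2, 0.64 ± 0.16, edgeR adjusted p = 0.0259). Of 14 tested male-biased genes 1 was higher in MetS-MetS against Ct-Ct (Slco1a1, 2.94 ± 0.86, edgeR adjusted p = 0.047) and 3 with postnatal exposure (Slco1a1, 3.07 ± 0.61, edgeR adjusted p = 0.00896, C8a and Serpina1e), so that called genes of both lists were higher. Pericentral hepatocyte genes, the zone in which Cyp2e1 and Cyp1a2 are known to be high, had 0 of 19 tested higher and 1 lower in MetS-MetS against Ct-Ct (Nkd1, −0.51 ± 0.15, edgeR adjusted p = 0.0436). Of 19 periportal genes, Cyp2f2 among them, 0 passed there and 1 was lower with postnatal exposure (Hal, −0.53 ± 0.13, edgeR adjusted p = 0.0245).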

How the data were processed

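The deposited table holds counts per gene for 49585 Ensembl mouse genes in 23 columns, made by the authors, per the submitters' processing notes, with FastQC, STAR, HTSeq and DESeq2, without versions. The genome build, strand setting and handling of multi-mapped reads: not given in the sources used here. Although named as normalised, the values were whole numbers whose size factors ran from 0.623 to 1.43 and were read as raw counts. Symbols and exonic lengths came from GENCODE M21 (GRCm38).

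Genes averaging 10 counts or more were tested with edgeR 4.0.16 (R 4.3.3; TMM factors, quasi-likelihood, robust, 1 mean per group over all 23 libraries), with Benjamini-Hochberg adjustment over 14466 genes. The test was also run on simulated counts, with an outcome not reported here. Those counts were drawn independently for each library, without litters, so that run cannot show how siblings affect the p-values. CPM use TMM-scaled library sizes. A gene's sharing is the percent of its 50-base transcript stretches found in another gene. No 2 libraries of a group were near-copies: over 55 pairs the Pearson correlation of log CPM across genes was 0.961 to 0.991, and every pair differed beyond sampling noise. Alternatives were DESeq2 1.42.0, limma-voom (limma 3.58.1), RLE factors, other count minimums, only the groups compared, and leaving out libraries. The gene set and lists were chosen with earlier results of these data known. Named genes (35 of 51) were 13 fixed ones, in each comparison those called or, failing 6, those of smallest p, and the ends of each subfamily for postnatal exposure. Others named were chosen after their values were seen. For the list of receptor partners, calls other than the 1 given are not reported here.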

Additional observations from a re-analysis of the deposited data

Results flagged for a closer look

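In 11 of 140 pairs of a gene and a group, 1 library stood far from the others of its group, beyond Dixon's critical value for that group size. Where values are normally distributed, chance alone gives about 1 in 20 such groups. The genes share libraries, so the 140 pairs are not independent and the 11 cannot be set against that share. Among MetS-Ct libraries MetS-Ct_53 was apart for Cyp2b10 (13.3 CPM) and for Cyp2c54 (28.7 CPM), and MetS-Ct_97, the pup taken at day 22, for Cyp2j9 (35.9 CPM) and Cyp3a25 (2054 CPM). Among Ct-MetS libraries Ct-MetS_24 was apart for Cyp2b9 (543 CPM), Ct-MetS_169 for Cyp2c50 (90.5 CPM, low) and Ct-MetS_50 for Cyp3a13 (207 CPM) and Cyp3a25 (764 CPM). MetS-MetS_39 was apart for Cyp3a25 (1072 CPM). Among Ct-Ct libraries Ct-Ct_33 was apart for Cyp3a11 (2438 CPM) and Ct-Ct_129 for Cyp3a41a (4.39 CPM). Cyp3a25 thus had a library apart in each of the 3 groups with an exposure. For the interaction of both exposures 0 genes of the set passed by edgeR, DESeq2 or limma-voom, and 6 lay at an unadjusted p under 0.05, which does not show that the postnatal changes were alike.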

How the results depend on the processing

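No paired analysis was possible because animal numbers are not shared between groups. The count of genes called in MetS-MetS against Ct-Ct (4) was 9 by DESeq2 and 2 without a count minimum, and 1 to 9 when 1 library was left out. In MetS-MetS against MetS-Ct (1) it was 2 by DESeq2, 0 without a count minimum, 0 without both MetS-Ct_70 and MetS-Ct_97 (chosen after seeing the data), and 0 to 2 when 1 library was left out. With postnatal exposure (3) it was 6 by DESeq2, 5 by limma-voom, and 1 to 6 when 1 library was left out. In Ct-MetS against Ct-Ct (0) it was 3 by DESeq2 and 0 to 1 when 1 library was left out, in MetS-Ct against Ct-Ct (0) it was 1 by DESeq2, and for prenatal exposure (0) 5 by DESeq2. The cause was not tested. Without both MetS-Ct_70 and MetS-Ct_97 Cyp2c70 lost its call for postnatal exposure, while Cyp2e1 and Cyp3a44 gained one in MetS-MetS against Ct-Ct. Of 5543 values of single genes under an alternative, 5465 kept their side of the threshold, 34 lost a call, 44 gained one and 0 called values changed sign. Most of these values passed in neither setting, so that keeping their side says little. Of the values that passed in neither, 181 changed sign. Summed CPM moved by less than 1 SD in all 144 cases, and RLE factors shifted the median of all genes by at most 0.0074. Depth limits Cyp2d11, Cyp3a41b, Cyp1a1, Cyp1b1, Cyp2s1, Cyp3a57 and Cyp2b10 most, with means under 50 counts.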
